A study of Mus musculus with 4 samples.

Results

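The comparison set RAW 264.7 cells kept for 4 h with Lactobacillus bulgaricus against untreated cells of the same line. RAW 264.7 is a macrophage-like line from the BALB/c mouse strain, transformed by a leukaemia virus, and L. bulgaricus is a Gram-positive lactic acid bacterium of yoghurt. The treated group received bacteria at a multiplicity of infection (bacteria added per cell) of 10, and the untreated group received none. Both groups were grown in the same serum-supplemented medium without antibiotic. The 2 arrays were picked by their treatment labels out of 4 in the study, whose other 2 arrays hold cells after 1 h and 6 h. Each array is a 2-colour Agilent mouse array on which RNA of the cells, pooled in equal amounts from 3 cultures, carries the dye Cy5. A common reference, by the labels RNA pooled from all groups, carries Cy3. Dyes were not swapped. A group is therefore 1 array of 1 cell line with no replicate array, no test and no p-value, and this number of arrays limits the precision. All arrays shared a slide and a scan, and their order on the slide followed the treatment time, so that time cannot be told apart from position.

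Macrophages recognise Gram-positive bacteria through pattern recognition receptors such as Tlr2, whose adaptors switch on the kinases that release NF-kB and activate MAP kinases. Immediate early genes answer within minutes, chemokine and cytokine genes follow, and feedback inhibitors, antioxidant enzymes and metal-binding proteins come up as the response goes on. Genes of the resting state, among them growth regulators, can be shut off over the same hours.

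The value followed throughout is the difference of the log2 Cy5/Cy3 ratio, 4 h minus untreated. A value of 1 stands for a 2-fold higher ratio and -1 for a 2-fold lower one. The ratios were taken after a fixed offset of 50 was added to each signal. Differences of dim genes can therefore be smaller than in the printed signals. Over 12 alternative settings, Lct ran from -3.12 to -1.71 and Id1 from -3.07 to -1.14. Genes are called higher or lower where the difference is at least 1 in size, which is a rule of size and not a test. A gene was measured when a probe of it was well above background on both arrays, in the cells and in the reference. Of 10335 measured genes, 25 were higher (0.242%) and 22 were lower (0.213%). With a 1.5-fold rule there would be 139 higher (1.34%) and 145 lower (1.4%). The median difference was 0.00 and the SD over genes was 0.24, and 95.6% of genes lay within 0.5 of zero. Replicate spots of 238 probes gave an SD of 0.13 for a difference, which is the error of spots alone, without that of cultures. Spots with Cy5 well above background made up 51.4% on the untreated and 51.0% on the 4 h array, and 0 were saturated. Of 47 genes past the rule, 38 rested on 1 probe with 1 spot. In a pooled RNA sample, fewer cells of a kind and less RNA per cell cannot be told apart.

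By the labels, the reference channel holds the same pooled RNA on every array. Its own change between arrays is therefore given beside that of the cells. Taken alone, the Cy3 signal differed by at least 1 in 1.37% of genes, which is more than the 0.455% for the ratio, because changes that both channels of a spot share cancel in the ratio. The SD over genes was 0.36 for the Cy5 difference and 0.32 for the Cy3 difference. Among the higher genes, 16 of 25 also passed the rule in Cy5 alone, where 0.474% of all genes were higher. Among the lower genes, 9 of 22 did, where 1.14% of all genes were lower. The change in the reference was the larger part of the difference in 2 of the higher and in 11 of the lower genes. The lower genes thus fall into a set in which the cell channel fell and a set in which the reference channel was brighter at 4 h. The part of the reference in these differences was not tested.

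**Figure D1:**
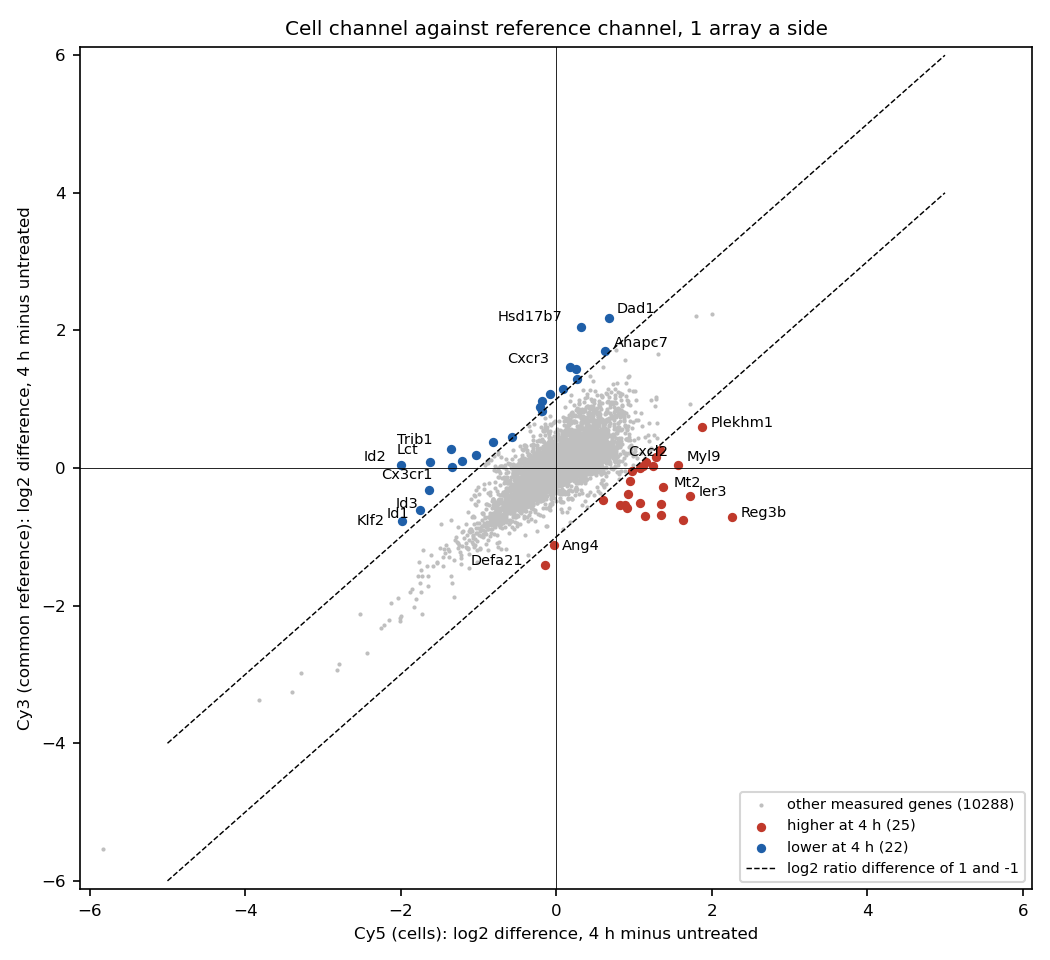
Difference between the 4 h and untreated arrays in the cell channel (Cy5, x axis, log2) against that in the reference channel (Cy3, y axis, log2) for 10335 measured genes. Each point is a gene, red for the 25 higher and blue for the 22 lower genes, and dashed lines mark a ratio difference of 1 and -1. Red points such as Ier3 lie mostly to the right of zero. Blue points split into a group at the left with little change in the reference (Id2, Cx3cr1) and a group at the top whose change was larger in the reference (Dad1, Hsd17b7).

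Macrophage markers were compared between the 2 arrays first, which does not test what kind of cell was used. Of 10 macrophage markers, 9 had a probe, 8 were measured and 0 of those passed the rule, with a median of -0.06. The pan-leukocyte phosphatase Ptprc stood at -0.44 with a Cy5 signal of 2364 untreated and 3250 at 4 h, the lysozyme Lyz2 at -0.29, the surface receptor Adgre1 at -0.17 and the lineage transcription factor Spi1 at 0.09. The Cy5 and Cy3 differences were 0.59 and 1.04 for Ptprc and -0.69 and -0.40 for Lyz2. For Adgre1 they were 0.43 and 0.60, and for Spi1 0.89 and 0.80. The processed Cy5 signals of the 8 markers summed to 49244 on the untreated array and 58069 on the 4 h array. Their Cy3 signals summed to 45074 and 54299, and the median difference was 0.20 in Cy5 and 0.24 in Cy3. Cd14, the lipopolysaccharide co-receptor, was not well above background on both arrays, and Cd68 had no probe with its symbol.

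Among genes with a known part in macrophage stress and inflammation, 3 were higher at 4 h. These were Ier3, an NF-kB-induced gene that modulates cell death, Mt2, a metallothionein that binds zinc and copper, and Cxcl2, a chemokine that attracts neutrophils. Each rose in the cell channel while the reference stayed flat or was dimmer. Ier3 had the third place in the ranking of all measured genes, and the rest of the immediate early list did not stand with it.

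The processed Cy5 signal of Ier3, which the scanner software had corrected for background and dye, was 1657 on the untreated array, 2243 at 1 h, 5729 at 4 h and 3467 at 6 h. In Cy3 it was 4088, 3309, 2711 and 2349 on the same arrays. The cell signal was highest at 4 h, and the reference was highest on the untreated array. Its log2 ratio difference at 4 h was 2.12, made up of 1.72 in Cy5 and -0.41 in Cy3. At 1 h it stood at 0.73 and at 6 h at 1.65 above the same untreated array.

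Mt2 had Cy5 signals of 14769 untreated, 16656 at 1 h, 39521 at 4 h and 40050 at 6 h, against Cy3 signals of 33813, 33372, 27440 and 28426. The untreated and 1 h arrays were low and the 4 h and 6 h arrays high. The ratio difference at 4 h was 1.65, with 1.38 in Cy5 and -0.27 in Cy3. Mt1, the neighbouring metallothionein gene, moved in the same direction without passing the rule, at 0.87, with 0.53 in Cy5 and -0.34 in Cy3. Its Cy5 signals were 24067 untreated and 36004 at 4 h. Of 11 measured genes of metallothioneins and zinc handling, 1 was higher and 0 were lower, with a median of 0.03. The zinc importers Slc39a10 (-0.98, Cy5 -0.90) and Slc39a1 (-0.44, Cy5 0.23) lay below zero.

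The upstream sequences of Mt2 and Mt1 are shown because both genes stood above zero and both are known targets of the zinc-sensing factor Mtf1. They are the 150 bases before each gene's start in RefSeq annotation of GRCm38.p6, at chr8:94172468-94172617 and chr8:94178939-94179088, both on the plus strand. Capitals mark matches to the core of the metal response element, searched as TGCACNC and TGCGCNC on both strands.
Mt2: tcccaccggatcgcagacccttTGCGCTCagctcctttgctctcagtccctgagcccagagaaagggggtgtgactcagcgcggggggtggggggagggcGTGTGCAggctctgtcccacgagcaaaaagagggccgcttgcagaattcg
Mt1: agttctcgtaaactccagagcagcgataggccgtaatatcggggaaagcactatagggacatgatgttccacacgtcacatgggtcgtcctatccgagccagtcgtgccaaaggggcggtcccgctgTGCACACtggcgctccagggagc
Mt2 holds 2 matches in this window, beginning at -128 and, on the minus strand, at -50, and Mt1 holds 1, at -23, with -1 as the last base before the start. Of 32851 RefSeq promoters, 14.7% hold at least 1 match in a window of the same length. A match is a description of letters and not a bound site. Bases outside the window, also those after the annotated start, were not searched.

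Cxcl2 had Cy5 signals of 324 untreated, 516 at 1 h, 764 at 4 h and 1198 at 6 h, with Cy3 signals of 733, 739, 695 and 581. The cell signal was lowest on the untreated array and the reference was nearly level over the first 3 arrays. The difference at 4 h was 1.02, just inside the rule, with 0.98 in Cy5 and -0.04 in Cy3, and at 6 h it was 1.58. Its upstream sequence is shown because Cxcl2 is a textbook NF-kB target and the 1 chemokine gene past the rule. The 150 bases lie at chr5:90903749-90903898 of GRCm38.p6 on the plus strand, from RefSeq, and capitals mark matches to the NF-kB (kB) motif searched as GGG, any 2 bases and TTTCC on both strands.
Cxcl2: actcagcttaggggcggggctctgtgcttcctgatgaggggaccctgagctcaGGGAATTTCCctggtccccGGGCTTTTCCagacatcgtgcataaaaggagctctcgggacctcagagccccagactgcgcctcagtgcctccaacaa
The window holds 2 matches, at -97 and -78, and 0.925% of the 32851 promoters hold at least 1.

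With the settings used here, the other chemokine and cytokine genes stayed inside the rule. Over 12 alternative settings, Csf3 passed it in 4, Cxcl10 in 2, Tnf in 1, and Ccl4 and Ccl6 in 0. Of 12 measured chemokine ligands, 1 was higher, 0 were lower and 10 lay above zero, with a median of 0.21 in the ratio and 0.25 in Cy5 alone, beside medians of 0.00 and 0.05 over all measured genes. Ccl4, which draws monocytes and T cells, stood at 0.80, Cxcl10 at 0.72 and Ccl6 at 0.59, and the cell signals of Ccl4 were 16245 untreated and 26188 at 4 h. Of 8 measured cytokines and colony-stimulating factors, 0 passed the rule in either direction, and the median was 0.13 but -0.01 in processed Cy5 signals alone and -0.03 without the filter on dim probes. Tnf, the central inflammatory cytokine, was the nearest to it, at 0.94 with 10 spots on the array. Its Cy5 signals were 16284 untreated, 22558 at 1 h, 36740 at 4 h and 20460 at 6 h, so that the 4 h array was the highest, and its Cy5 difference of 1.20 was past the size of the rule while Cy3 moved by 0.26. Csf3, the granulocyte colony-stimulating factor, stood at 0.70 with Cy5 signals of 128 and 334. Another 13 cytokine genes with a probe, among them Il1b and Il6, were not measured.

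The NF-kB machinery itself moved little. Of 20 measured subunits, kinases and inhibitors, 0 passed the rule, 13 lay above zero and the median was 0.10. The inhibitors Tnfaip3 (0.65), Nfkbia (0.53) and Otud7b (0.39) were the highest, and the co-activator Bcl3 (-0.55) the lowest. For Nfkbia Cy5 stood at 0.50 and Cy3 at -0.03. In processed signals, however, its 4 h value over the untreated one was 1.22-fold in Cy5 and 0.82-fold in Cy3. For Tnfaip3 Cy5 stood at 0.20 and Cy3 at -0.44, and the share of each channel in its change was not tested. Tnfaip3 has its single spot in column 85 at the edge of the array, where the median Cy5 and Cy3 differences were -0.56 and -0.53.

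Targets of NRF2, the transcription factor that switches on antioxidant enzymes, lay mostly above zero. Of 24 measured members, 20 did so, 0 passed the rule, and the median was 0.18 in the ratio and 0.19 in Cy5 alone. Hmox1, the heme oxygenase, stood at 0.92, with Cy5 signals of 2197 untreated, 2920 at 1 h, 5891 at 4 h and 8920 at 6 h. Sqstm1, which brings cargo to autophagosomes, stood at 0.64, with Cy5 at 1.29 and Cy3 at 0.65. Gclc, which makes the first step of glutathione synthesis, stood at 0.56, all of it in Cy5. Blvrb, a biliverdin reductase, was the lowest at -0.50.

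Immediate early genes lay mostly below zero in the ratio, but not in the cell channel. Of 23 measured members, 1 was higher (Ier3), 1 was lower (Klf2) and 17 lay below zero, with a median of -0.15. In Cy5 alone 11 lay below and 12 above zero with a median of 0.00, while the reference was above zero in 14 of 23 with a median of 0.10. Against the same untreated array, the list had a median of 0.41 at 1 h and -0.11 at 6 h. Fosl2, an AP-1 subunit, stood at -0.98 with Cy5 signals of 1121 and 725. Egr2, a zinc finger factor, stood at -0.71 at 4 h and at 0.94 at 1 h. Of 10 measured MAP kinase phosphatases and Sprouty or Spred inhibitors, 0 passed the rule, and Dusp6, a phosphatase for ERK, stood at -0.65.

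Beside Fabp6, Gpx2 and Itln1, which are given with the gut transcripts, 5 higher genes are on none of the lists and are not alpha-defensins. Plekhm1, an adaptor for fusion of lysosomes, stood at 1.28, Zfp217, a zinc finger repressor, at 1.09, Tgfbi, a matrix protein induced by TGF-beta, at 1.07, and Six4, a homeobox factor, at 1.07. Naaladl1, a peptidase known from the small intestine, stood at 1.21. All 5 also passed in Cy5 alone, by 1.07 to 1.88. For Tgfbi the Cy5 signals were 285 untreated, 426 at 1 h, 762 at 4 h and 485 at 6 h, with Cy3 signals of 1069, 1084, 1060 and 987. Plekhm1 and Zfp217 have their single spots in column 4 of the array.

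The genes that were lower at 4 h with a fall in the cell channel included all 3 measured Id genes, whose products block basic helix-loop-helix transcription factors. Lct, a gene of the gut brush border with a fall of this kind, is described with the other gut transcripts. Also lower were Trib1, an adaptor that marks C/EBP proteins for degradation, Cx3cr1, the receptor for fractalkine, Mir17hg, the host transcript of the miR-17-92 cluster, and Klf2, a factor of the quiescent state. For Id2, Trib1, Cx3cr1 and Mir17hg the reference moved by 0.28 at most, so almost all of the difference lay in Cy5.

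Id2 was the lowest gene of all those measured. Its Cy5 signals were 1716 untreated, 1051 at 1 h, 299 at 4 h and 200 at 6 h, against a Cy3 signal of 968, 1004, 999 and 799. The cell signal was lower on each later array and the reference was nearly level on the first 3. The difference at 4 h was -2.03, with -1.99 in Cy5 and 0.04 in Cy3, and at 6 h it was -2.15. Id3 had Cy5 signals of 6047, 6668, 2063 and 1580 in the same order, high on the untreated and 1 h arrays and low on the other 2. Its difference was -1.32, with -1.64 in Cy5. Id1 had Cy5 signals of 479, 541, 59.8 and 37.4 and stood at -1.14, with -1.75 in Cy5 and -0.61 in Cy3. The single spots of Id2 and Id3 lie in columns 5 and 4, within the columns 1 to 10 near the left edge of the array, where the reference moved more often. In those 2 columns the median Cy5 differences were 0.09 and 0.13. The spot of Id1 lies in column 84, where the median Cy5 and Cy3 differences were -0.22 and -0.23. Of 16 measured Id genes and genes of TGF-beta and BMP feedback, these 3 were lower and 0 were higher, and the median of the list was -0.06. Skil, a co-repressor of SMAD proteins, stood at -0.47.

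Trib1 had 2 probes, at -2.01 and -1.27, and a mean difference of -1.64. Its Cy5 signals were 918 untreated, 1357 at 1 h, 237 at 4 h and 151 at 6 h, so it was highest at 1 h and low on both later arrays. Of 10 measured Trib and C/EBP genes it was the 1 that passed the rule, while Cebpa (0.61) and Cebpb (0.44) stood above zero. Cx3cr1 had 3 probes, from -1.48 to -1.19, and stood at -1.36. Its Cy5 signals were 4319, 4384, 1685 and 1437, with Cy3 signals of 2663, 3130, 2860 and 3112. The 4 h and 6 h arrays lay well below the other 2 in Cy5 and within the same range in Cy3.

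Mir17hg had Cy5 signals of 725 untreated, 693 at 1 h, 264 at 4 h and 40.5 at 6 h, with Cy3 signals of 441, 530, 534 and 559. Its difference was -1.31 at 4 h and -2.56 at 6 h. Of 13 measured genes of the MYC network it was the 1 past the rule, and Myc itself stood at 0.46, with Cy5 at 0.08. The mature miRNAs cut from this transcript were not measured on the array. The sequences of 6 of them are shown because they are the products of the lower transcript and share only 4 seeds. They are from RefSeq on GRCm38.p6, encoded on the plus strand of chromosome 14 between chr14:115043684-115043706 for miR-17-5p and chr14:115044476-115044496 for miR-92a-3p. Capitals mark the seed, bases 2 to 8, which pairs with target mRNAs.
miR-17-5p: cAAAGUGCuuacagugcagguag
miR-20a-5p: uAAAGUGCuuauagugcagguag
miR-18a-5p: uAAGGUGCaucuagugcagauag
miR-19a-3p: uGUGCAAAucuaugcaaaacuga
miR-19b-3p: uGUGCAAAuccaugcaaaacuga
miR-92a-3p: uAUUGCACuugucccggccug
miR-17-5p and miR-20a-5p share the seed AAAGUGC, and miR-19a-3p and miR-19b-3p share GUGCAAA.

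Klf2 had Cy5 signals of 1191 untreated, 1657 at 1 h, 194 at 4 h and 107 at 6 h, and Cy3 signals of 1436, 699, 802 and 367. It was low in the cells on both later arrays, and its reference was brightest on the untreated array. The ratio difference was -1.22, made of -1.98 in Cy5 and -0.77 in Cy3. Its single spot lies in column 1, where the median Cy5 difference over 137 spots was -0.83 and the median Cy3 difference -0.75. In that column the median ratio difference was -0.06.

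Rtp4, an interferon-induced gene, Pdcd1, the immune checkpoint receptor PD-1, and Snai1, a transcriptional repressor, were also lower. Rtp4 stood at -1.23 with Cy5 signals of 3096 untreated and 1212 at 4 h, Pdcd1 at -1.18 with 1429 and 691, and Snai1 at -1.02 with 427 and 223. Rtp4 passed in Cy5 alone (-1.04), while Pdcd1 (-0.81) and Snai1 (-0.57) did not. For Snai1 the reference was brighter by 0.46, with 209 on the untreated array and 313 to 397 on the other 3.

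**Figure D2:**
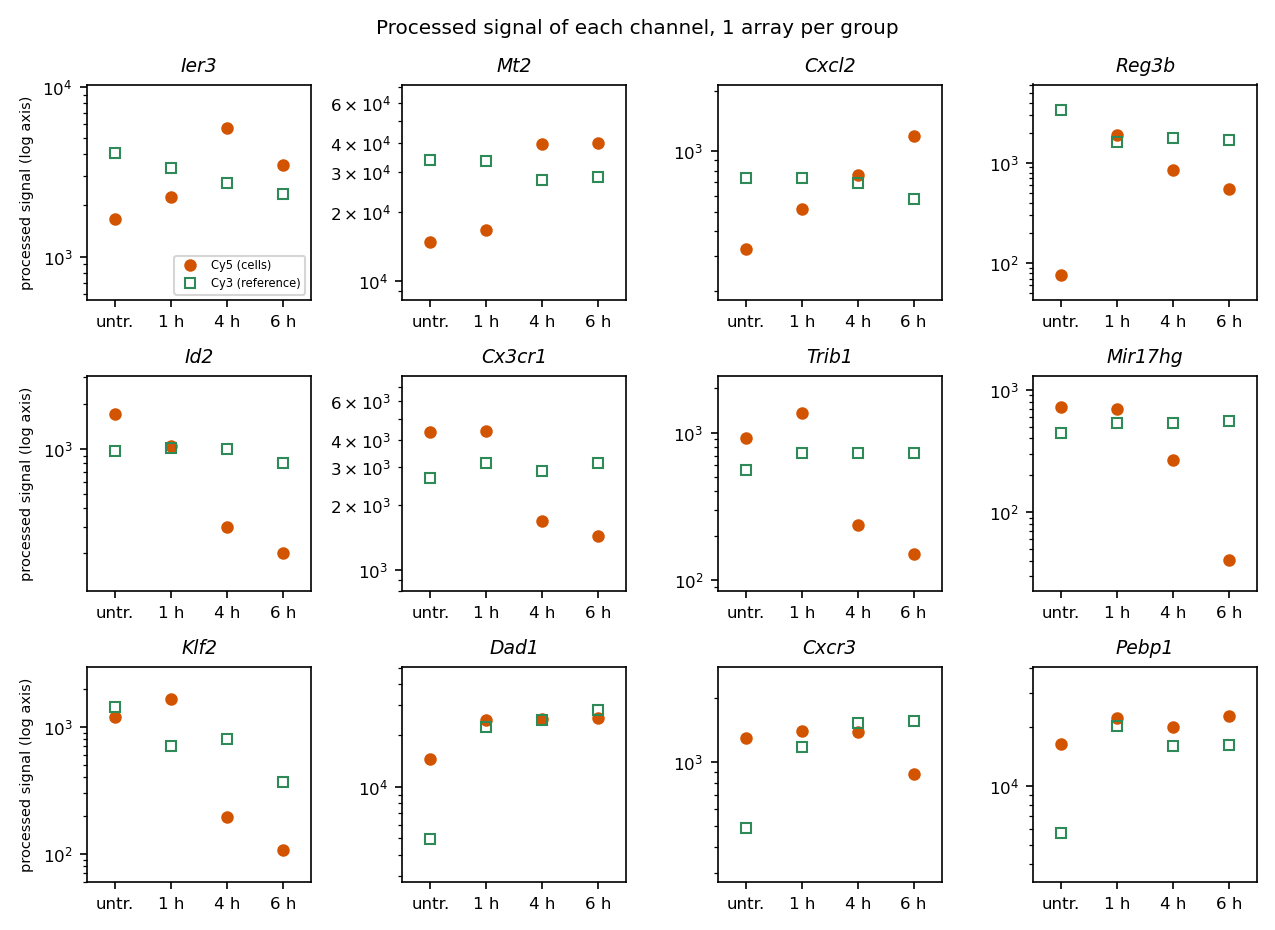
Processed signal (y axis, log scale, scanner units) of 12 genes on each of the 4 arrays (x axis, untreated, then 1 h, 4 h and 6 h), with filled circles for the cells (Cy5) and open squares for the reference (Cy3). Each point is 1 array, with no replicate. The cell signals of Id2, Cx3cr1, Trib1 and Mir17hg are lowest at 4 h and 6 h with a near-level reference. In Dad1, Cxcr3 and Pebp1 the reference point of the untreated array is the one that stands apart.

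In a further set of lower genes the untreated reference stood low. Dad1, a subunit of the enzyme that attaches sugar chains to new proteins, had Cy5 signals of 14468 untreated, 24513 at 1 h, 25090 at 4 h and 25275 at 6 h. Its Cy3 signals were 4964, 22485, 24563 and 28156. The untreated array was the lowest in both channels, and by far more in the reference, so that the ratio difference of -1.51 combines a Cy5 difference of 0.67 with a Cy3 difference of 2.19. Cxcr3, a chemokine receptor of T cells, stood at -1.30 with Cy5 at 0.18 and Cy3 at 1.47, and Cy3 signals of 490 untreated against 1181, 1526 and 1558. In 8 of the 22 lower genes the untreated Cy3 value lay at least 1 below the median of the 3 treated arrays, on the log2 scale. The ratio differences of these genes rest on the untreated array having carried the same reference RNA as the others, which the files do not settle. The single spots of Dad1 and Cxcr3 lie in columns 2 and 7 of the array, near its left edge.

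Cy5 and ratio had opposite signs in 7 of the 22. Beside Dad1 and Cxcr3 these included Hsd17b7, Pebp1, Slc41a3 and Anapc7. Pebp1, an inhibitor of RAF kinase, had Cy5 at 0.26 and Cy3 at 1.43. Anapc7, a subunit of the anaphase-promoting complex, had 0.63 and 1.70, and Slc41a3, a magnesium transporter, 0.08 and 1.15. Hsd17b7, an enzyme of cholesterol synthesis, had 2 probes that differed widely, at -3.30 and -0.15, and the first carried a Cy3 difference of 3.95. Stc2, a secreted glycoprotein, Tnni2, a troponin of fast muscle, Cyp51 and Rgs2, a regulator of G protein signalling, had Cy5 at -0.08 to -0.21 and Cy3 at 0.83 to 1.07. Leaving out genes whose reference moved by 1 or more left 14 lower genes.

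**Figure D3:**
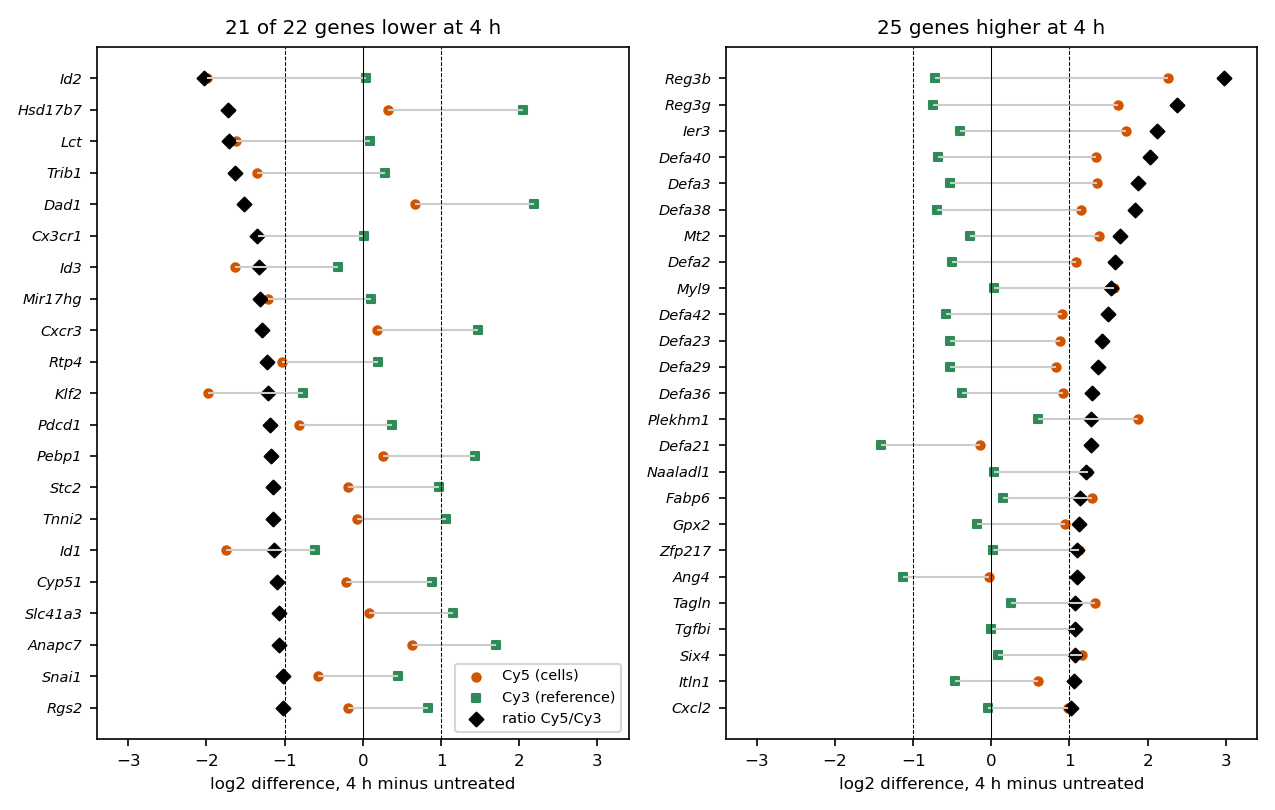
Log2 difference (x axis, 4 h minus untreated) of 21 of the 22 lower genes (left panel) and 25 higher genes (right panel), 1 gene per line. Diamonds show the ratio, circles the cell channel and squares the reference channel, with dashed lines at -1 and 1. The diamond lies near the circle for Id2, Cx3cr1, Tgfbi and Cxcl2, and the square lies far from zero for Dad1, Hsd17b7, Anapc7 and Defa21.

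Among lists with at least 10 measured members, interferon-stimulated genes, which encode antiviral effectors, had the lowest median in the ratio and in Cy5. The chemokine receptor list, with only Cx3cr1 and Cxcr3 measured, had lower medians, at -1.33 and -0.58. Of 34 measured members, 29 lay below zero, 1 was lower (Rtp4) and 0 were higher. The median was -0.33 in the ratio, -0.32 in Cy5 and 0.04 in Cy3, so that the reference of the list was level. Beside Rtp4 the largest differences were those of Trim25, a ubiquitin ligase of RIG-I signalling, at -0.96, of Xaf1, an apoptosis-promoting factor, at -0.71, and of Irf9, the DNA-binding part of the interferon-activated complex, at -0.70. Irf9 had Cy5 signals of 2130 untreated, 2512 at 1 h, 1149 at 4 h and 1284 at 6 h, and Cy5 alone fell by 0.93. For Trim25 the Cy5 difference was -0.35 and the reference was brighter by 0.61. At 1 h the median of the list was 0.07 and at 6 h -0.40 against the same untreated array.

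The unfolded protein response, which adds chaperones when proteins misfold in the endoplasmic reticulum, lay low as well. Of 25 measured genes, 22 lay below zero and 1 passed the rule, namely Dad1 through its reference. The median was -0.23 in the ratio and -0.16 in Cy5. Herpud1, a component of the degradation machinery, stood at -0.95 with Cy5 signals of 2812 and 1536. Dnajb9, a co-chaperone of BiP, stood at -0.65 with 1010 and 561, and the ubiquitin ligase Syvn1 at -0.48. Of 20 measured genes of the ATF4 amino acid response, 0 passed the rule and the median was 0.01; Chac1, which degrades glutathione, stood at -0.88 and Ddit4, an inhibitor of mTOR signalling, at 0.74.

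Cholesterol and fatty acid synthesis looked different in each channel. In the ratio 32 of 33 measured genes lay below zero, with a median of -0.21, and 3 were lower, among them Hsd17b7 at -1.73 and the lanosterol demethylase Cyp51 at -1.09. In Cy5 alone 17 of 33 lay below zero and the median was 0.00 (-0.12 in processed Cy5 signals centred on all genes), while the reference was above zero in 28 of 33 with a median of 0.21. Elovl6, a fatty acid elongase named after its value was seen, was dimmer in both channels at 4 h, by -2.52 in Cy5 and -2.12 in Cy3, and stood at -0.40.

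Housekeeping groups moved by small amounts in the ratio. Of 36 measured genes of cell cycle and DNA replication, 31 lay below zero, 0 passed the rule and the median was -0.12, with -0.10 in Cy5. Bub1, a mitotic checkpoint kinase, stood at -0.29 and Pcna, the sliding clamp, at -0.28. Of 19 measured glycolysis and hypoxia genes, 15 lay below zero with a median of -0.17. Gapdh stood at -0.98, with Cy5 at -0.19 and Cy3 at 0.79, but its 2 probes differed widely, at -1.67 and -0.29, and the value ran from -1.02 to -0.11 over 12 alternative settings. Ribosomal protein genes had a median of -0.09 with 29 of 33 below zero, and proteasome subunits one of 0.07 with 22 of 29 above zero. In the single channels the ribosomal median was -0.26 in Cy5 and -0.23 in Cy3, and the proteasome median 0.11 and 0.02. The share of all measured genes below zero was 49.1%.

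**Figure D4:**
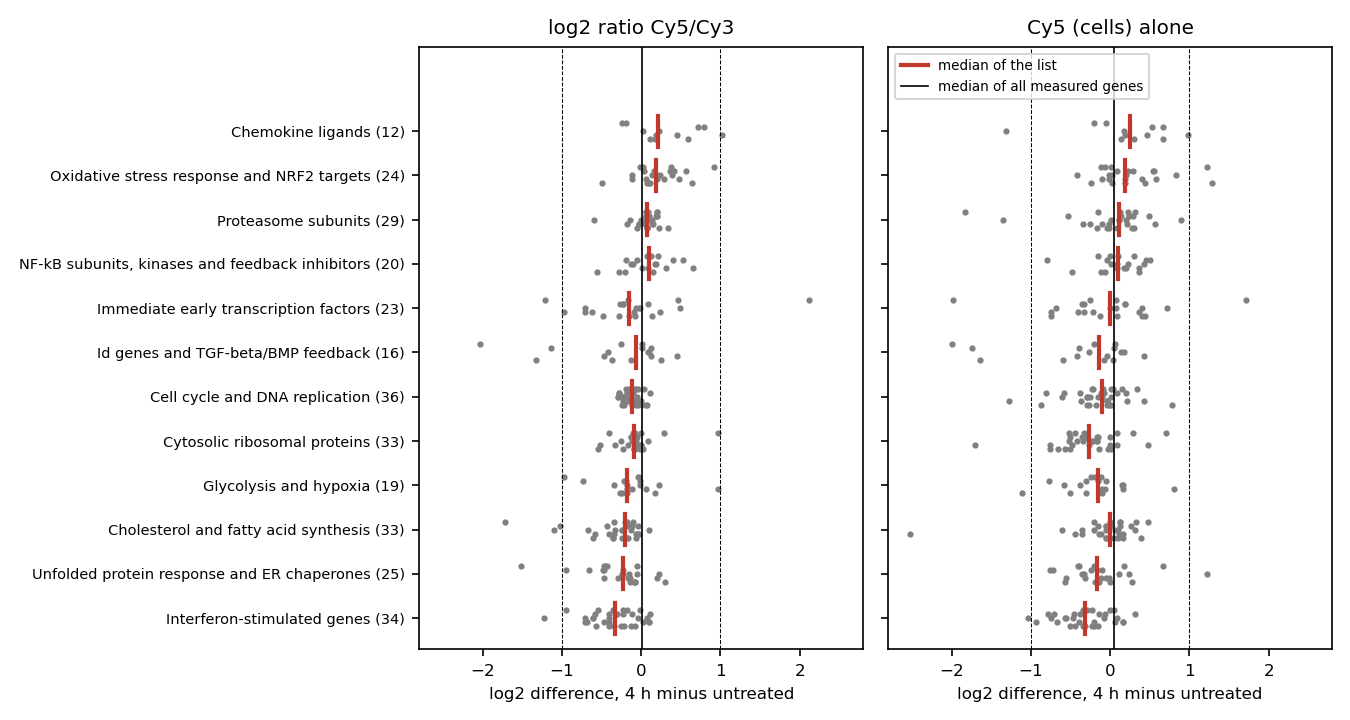
Log2 difference (x axis, 4 h minus untreated) of the measured members of 12 gene lists, in the ratio (left panel) and in the cell channel alone (right panel). Grey points are genes, red bars the median of a list, the black line the median of all measured genes and dashed lines -1 and 1, with the number of measured members in brackets. Interferon-stimulated genes lie to the left in both panels (medians -0.33 and -0.32), whereas the cholesterol list lies to the left in the ratio (-0.21) and at 0.00 in Cy5.

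Most of the higher genes are transcripts known from intestine or smooth muscle and not from macrophages. On the lists of tissue markers, or named as alpha-defensins, were 14 of the 25 higher genes and 1 of the 22 lower ones. Of the 14, 9 were alpha-defensins, whose probes may read several genes. Among measured members, 9 of 13 were higher on the Paneth cell list and 2 of 6 on the smooth muscle list. The other lists of tissue markers held no higher gene, and 0.242% of all measured genes were higher. Reg3b and Reg3g, antimicrobial lectins of the gut, held the first places in the ranking at 2.98 and 2.38. At 1 h they stood at 4.18 and 3.02, and at 6 h at 2.46 and 1.40. Reg3b had Cy5 signals of 76.3 untreated, 1908 at 1 h, 840 at 4 h and 554 at 6 h, and Cy3 signals of 3361, 1631, 1788 and 1675. The untreated array was the lowest in Cy5 and the highest in Cy3. Its log2 ratio was -3.86 untreated and -0.88 at 4 h, so the cells stood below the reference on both arrays. At 1 h it was 0.32 and at 6 h -1.40. Some gut transcripts stood below the reference on all 4 arrays. In the order untreated, 1 h, 4 h and 6 h, Defa2 had log2 ratios of -2.02, -0.78, -0.43 and -1.64. The keratin Krt19 had -1.64, -0.69, -0.80 and -0.40. Whether the reference held RNA of these groups only was not tested.

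Alpha-defensins are small antimicrobial peptides that Paneth cells of the small intestine store in granules. Of 13 with a probe, 12 were measured, 9 were higher and all 12 lay above zero, from 0.39 to 2.03, with a median of 1.39. The median was 0.92 in Cy5 and -0.53 in Cy3, so part of the difference came from a reference brighter on the untreated array. For Defa38 the Cy3 signals were 6130 untreated, 3830 at 1 h, 3255 at 4 h and 3884 at 6 h. In 9 of the 25 higher genes, untreated Cy3 lay at least 0.5 (log2) above the median of the 3 treated arrays. Defa40 (2.03) had Cy5 signals of 557 untreated, 1243 at 1 h, 1694 at 4 h and 1091 at 6 h. Defa3 (1.87) had 3 probes, from 1.71 to 2.14. Since the genes are near-identical in sequence, a probe may read several of them and single values are uncertain. Defa21 (1.27) had a Cy5 difference of -0.14 and a Cy3 difference of -1.41, and Ang4 (1.09), an angiogenin of Paneth cells, had -0.03 and -1.12. Both have their single spot in column 85. Among 13 measured markers on the Paneth cell list 9 were higher, but Lyz1, the lysozyme of Paneth cells, stood at 0.00 and the pentraxin Mptx1, 2.78 at 1 h, stood at -0.72. The median of that list was 1.36 at 4 h, 1.47 at 1 h and 0.48 at 6 h, each against the same untreated array.

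All 6 measured smooth muscle genes lay above zero, with a median of 0.94 in the ratio, 1.16 in Cy5 and 0.15 in Cy3. Against the same untreated array the median ratio difference was 0.52 at 1 h and 0.73 at 6 h. Myl9, a myosin light chain, stood at 1.53, with Cy5 signals of 346 untreated, 580 at 1 h, 1555 at 4 h and 963 at 6 h. Tagln, an actin-binding protein, stood at 1.08 with 285 and 836. Calponin, Cnn1, stood at 0.98, just outside the rule, and enteric actin, Actg2, at 0.90. In this group the cells carried the change and the reference was near level. The processed Cy5 signals of the list summed to 2346 on the untreated array and 6284 at 4 h, and for the Paneth cell list to 8393 and 18337. The smooth muscle markers Myh11 and Des were not measured.

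Other gut markers moved less. All 7 measured goblet cell genes lay above zero with a median of 0.42, led by the lectin Zg16 at 0.89, and 0 passed the rule. All 5 epithelial genes did so too, with a median of 0.56 in the ratio and 0.16 in Cy5, led by the keratin Krt19 at 0.84. At 1 h the medians were 0.88 for goblet cell and 0.64 for epithelial genes, and at 6 h 0.74 and 0.77. Fabp6, the bile acid carrier of the ileum, stood at 1.13, Gpx2, the glutathione peroxidase of the gut, at 1.13 and Itln1, an intestinal lectin, at 1.06; these 3 are on none of the tissue lists. Of 13 measured enterocyte genes 8 lay above zero and the median was 0.12. Lct, the lactase of the brush border, was lower at -1.71, with Cy5 signals of 387 untreated, 191 at 1 h, 47.8 at 4 h and 142 at 6 h. Fabp1, a fatty acid carrier, was not well above background in Cy5 at 4 h and was at least 2.49-fold lower there. The source of these transcripts was not tested.

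Markers of other blood cells were faint, apart from Jchain of the B cell list. Its Cy3 signals were 2074 untreated and 1550 at 4 h, against 806 and 914 in Cy5. Of 5 B cell markers, 2 were measured, of 4 T cell markers with a probe, 2, and of 5 neutrophil markers with a probe, 2. Their processed Cy5 signals summed to 871 untreated and 979 at 4 h for B cells, mostly from Jchain, the joining chain of antibodies, at 0.53. They summed to 214 and 156 for T cells and to 226 and 168 for neutrophils. None of these markers passed the rule.

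The change of the reference depended on the place of a spot on the array. Cy3 differed by at least 1 at 43.8% of spots in column 1, at 24% in column 85, at 7.66% in columns 1 to 10 and at 1.11% in columns 11 to 84. Both channels moved together there, and the ratio differed by at least 1 at 1.33% of spots in column 85, 1.19% in columns 1 to 10 and 0.481% in between. Of the genes past the rule, 7 higher and 8 lower had a spot in columns 1 to 10 or 85, as did 15.7% of all measured genes. Their part in the results was not tested beyond leaving those columns out.

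**Figure D5:**
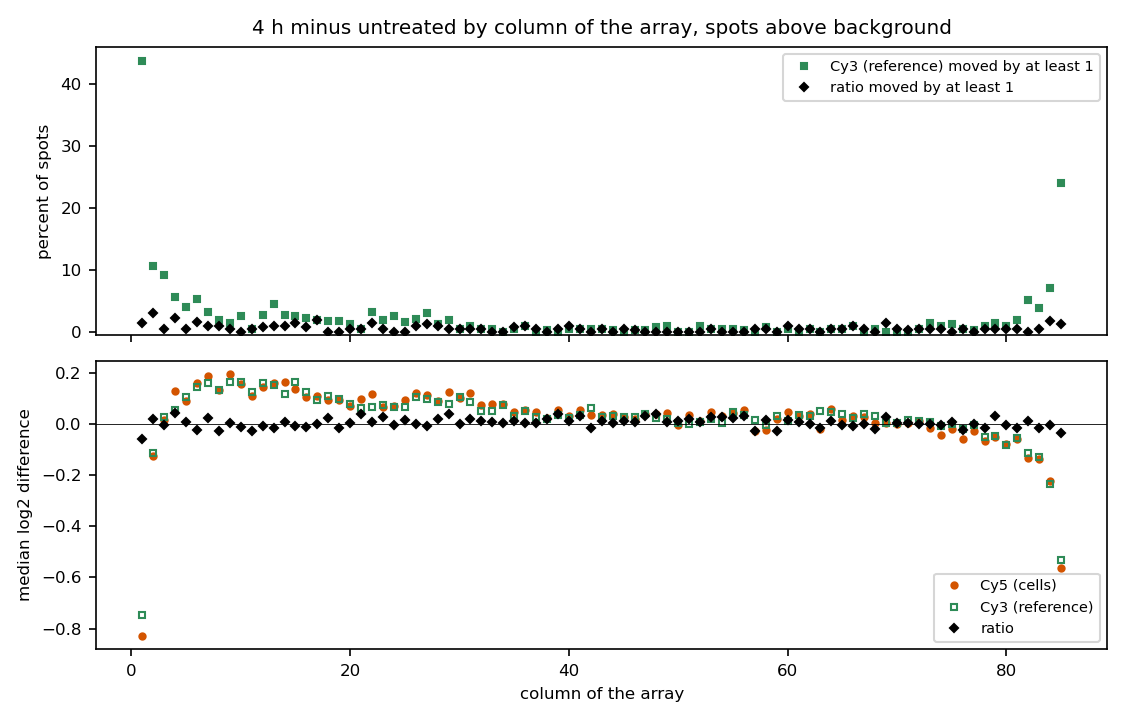
Differences between the 4 h and untreated arrays by column of the array (x axis). The upper panel gives the percent of spots, among those above background, whose reference (green squares) or ratio (black diamonds) moved by at least 1 on the log2 scale. The lower panel gives the median log2 difference of each channel and of the ratio. The reference moved at 43.8% of spots in column 1 and 24% in column 85, while the median ratio stayed near zero across the array.

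Near the edge of the rule the order of genes is within spot error. Just inside on the high side were Six4 at 1.07, Itln1 at 1.06 and Cxcl2 at 1.02, and just outside were Cnn1 at 0.98 and the ribosomal gene Rps15 and the respiratory chain gene Ndufb10, both at 0.97. Just inside on the low side were Rgs2 and Snai1, both at -1.02, and just outside Car1 at -0.995, Slc39a10 at -0.98 and Fosl2 at -0.98. Genes well above background in Cy5 on only 1 of the arrays have a bound in place of a difference. There were 3 of these at least 2-fold lower at 4 h and 0 higher, among 382 and 361 such genes. Twsg1, a BMP-binding protein, was at least 5.04-fold lower and Tmlhe, an enzyme of carnitine synthesis, at least 3.23-fold, but their reference was dimmer by -1.88 and -1.83 as well. For Fabp1 the reference moved by -0.23.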

How the data were processed

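The submitters' processing notes name Agilent Feature Extraction 10.5.1.1 for reading the images. Its deposited output lists for each spot the raw median intensity of the spot and of its surroundings, and a processed intensity from which the software had removed background and dye bias. The deposited series table holds the log10 ratio of Cy5 over Cy3, which matched the scanner files' ratio within 0.0165 on the log2 scale. Later steps by the authors are not given in the sources used here.

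The raw medians went through normexp background correction (offset 50) and loess within each array (limma 3.58.1, R 4.3.3), with control and outlier spots at weight 0 and no step between arrays. Control and outlier spots were then left out (1.58% and 1.69% outliers), spots averaged per probe and probes per gene. Single-channel differences and bounds used Aquantile normalization, so that Cy5 minus Cy3 equals the ratio difference. A bound sets the Cy5 value on the bright array against that on the dim one, or against the faintest probe still well above background there if that is brighter, and is open to dye bias. Printed signals are processed signals, averaged over a gene's probes. Of 39429 probes, 27649 matched 1 gene by unversioned accession in a RefSeq table (GRCm38.p6). Probe positions in the files are on mm9 and are not printed here.

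The comparison, the 52 gene lists and the rules were chosen with earlier results of these data known. Named genes were all past the rule with a proper symbol, the bounds of at least 2-fold, and up to 4 members of each list with the largest differences. Some of these genes are counted in the totals but not reported here by name. The other arrays share the untreated array and are shown as a description. The steps were tested on simulated data, and 14 alternatives were tried, 2 of them chosen after seeing the data. Tables and plots used Python 3.11.15 with matplotlib 3.10.9, pandas 2.3.3 and numpy 2.4.6.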

Additional observations from a re-analysis of the deposited data

Results flagged for a closer look

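Klf2 stood at -1.22 at 4 h and at 1.24 at 1 h, against the same untreated array, so that its 2 values had opposite directions. The difference between the times was not tested, since each time has 1 array. Its spot is in column 1 of the array, and its reference was brighter on the untreated array (processed Cy3 signal 1436) than at 1 h (699) and 4 h (802). The part of the reference in the opposite directions was not tested.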

How the results depend on the processing

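The 25 higher genes became 71 with local background subtracted, 144 in processed signals, 146 in the deposited ratios, 184 in processed Cy5 signals alone and 139 with a 1.5-fold rule. The 22 lower genes became 37, 99, 98, 332 and 145 in the same settings, 34 with an offset of 16 and 14 without genes whose reference moved by 1 or more. Of the 25 higher genes, 21 stayed in the count in processed Cy5 alone, 23 when the reference had to move by under 1, and 25 in each of the other settings just named. Of the lower genes 11 stayed in processed Cy5 alone. Processed Cy5 alone also turned the sign of 5 lower genes, among them Anapc7 (0.55), Pebp1 (0.22), Cxcr3 (0.030) and Dad1 (0.73), where the reference is not used. All 47 kept their sign in the other settings that could be run on them, 41 of them without spots of outlying background and 36 without the edge columns. Hsd17b7 passed the rule in 6 of 12 settings. Of the medians of 52 lists, 12 changed sign in processed Cy5 alone. Signal over background limits the dim genes: 10632 of 20967 genes with a probe were not measured. No paired analysis was possible because each group has 1 array.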

Other observations

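Probes with no gene name here added few features past the rule. Of 2455 measured features without a name, 12 were higher and 3 were lower at 4 h, and they are in none of the counts above.

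Genes of the linker histones, LXR targets and acute phase proteins were measured but did not pass the rule at 4 h. H1f2, a linker histone, stood at 0.79 with processed Cy5 signals of 1117 untreated, 1699 at 1 h, 2513 at 4 h and 6777 at 6 h, so the 6 h array was the highest. Abcg1, a cholesterol exporter, stood at 0.66 and Npc1, which moves cholesterol out of lysosomes, at 0.50, while Cd36, a scavenger receptor, stood at -0.33. Nos2, which makes nitric oxide in activated macrophages, lay at -0.93 with Cy5 at -0.29 and Cy3 at 0.64. Cfp, the complement factor properdin, stood at -0.78 with Cy5 at 0.35 and Cy3 at 1.13. Its Cy3 signals were 14750 untreated and 31280, 32664 and 33049 on the other 3 arrays.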
